A study of Mus musculus with 12 samples.

Results

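RNA-seq of 4T1 cells with Nedd4 knocked out was compared with RNA-seq of 4T1 control cells, 3 libraries against 3, gene by gene. 4T1 is a mouse mammary carcinoma line from a BALB/c tumour that spreads to distant organs when grafted into mice. The control cells carry the genotype label WT, and the knockout (KO) cells carry the label sgNEDD4, the usual notation for a CRISPR guide RNA against this gene; both were grown in the same serum-containing medium with no further treatment named in the labels. Of 56691 genes in the deposited table, 13313 passed a low-count filter and were tested. The series holds 12 libraries in all, and the other 6 come from a second line and were not used. Where the guide cuts, whether the KO cells are 1 clone or a pool, and whether libraries came from separate cultures are points the labels leave out, so the p-values measure only the spread between these libraries, which may be technical.

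NEDD4 is a ubiquitin ligase of the HECT class. Its WW domains bind short proline-rich motifs in membrane proteins, receptors, channels and adaptors, and the ubiquitin it attaches can send a protein to the lysosome or the proteasome or change its location. It has been studied in tumour cells for its action on growth factor receptors and other regulators of growth. RNA-seq shows transcript levels and neither ubiquitin nor protein.

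The libraries held 13705612 to 17613842 counts. In the KO libraries 20937 to 21264 genes had at least 1 count, against 18836 to 19017 in controls. Mitochondrially encoded genes took 2.2% to 3.64% of the counts in control libraries and 2.25% to 2.83% in KO libraries. Markers of luminal mammary epithelium were high, with a summed level of 1973 to 2056 FPKM (fragments per kilobase, scaled to sequencing depth) in controls and 1437 to 1516 in KO over 11 markers, of which 9 could be tested, 1 was called higher and 5 lower. Cldn7 and Prlr of that list were at or near 0, and of 7 basal markers Krt5, Trp63 and Acta2 were at or near 0 in both groups, Krt14 stood at 2.45 to 4.52 FPKM and was not called, and 1 of the 3 that could be tested, Mylk, was called higher; the basal sum was 4.28 to 6.05 FPKM in controls and 4.04 to 5.59 in KO. Lists for other cell types held both silent and expressed genes. Among 6 endothelial markers Pecam1 did not exceed 0.12 FPKM while Eng stood at 19.07 to 23.16, and the sum was 19.71 to 21.11 FPKM in controls and 20.6 to 24.11 in KO. Among 7 fibroblast markers Col3a1, Pdgfrb and Lum were listed at 0 in every library while Pdgfra stood at 4.73 to 5.7 FPKM, and the sum was 4.88 to 5.83 in controls and 5.26 to 5.47 in KO. Eng and Pdgfra were not called. Of 9 leukocyte markers Ptprc, the pan-leukocyte antigen, did not exceed 0.07 FPKM, Cd68 was called higher and Cd14 lower, and the sum was 24.2 to 26.75 FPKM in controls and 26.32 to 29.32 in KO. The part of other cells in the results was not tested.

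Nedd4 (ENSMUSG00000032216, chromosome 9, protein-coding) was read first as a check on the labels. It stood at 94.4, 97.6 and 93.5 FPKM in the control libraries and at 24.7, 24.9 and 25.3 in the KO libraries, so the groups did not overlap. The log2 change was -2.01 ± 0.04 (SE; quasi-likelihood test of edgeR, Benjamini-Hochberg adjusted over all tested genes, adjusted p = 6.19e-21). Counts cover the whole gene and do not show where along Nedd4 the remaining reads lie.

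A gene is called here where its adjusted p was under 0.05, and "rose by" or "fell by" gives a log2 change with its SE. By that rule 7589 of 13313 tested genes passed (57%), of which 3725 were higher in KO (28%) and 3864 were lower (29%). With scaling to total counts alone, which raises the median change of all genes by 0.079 on the log2 scale, 61.1% of called genes were higher instead of 49.1%. Changes of at least 2-fold were rarer: 1018 called genes (7.65%) reached that size, 756 higher (5.68%) and 262 lower (1.97%). Because 57% of all tested genes are called, a list of genes is read below against these percentages, and a gene by the size of its change and by its value in each library. The percentages also depended on level, with coding genes put in 5 level groups of nearly equal size by mean log2 FPKM. In the lowest level group 32.4% were higher and 14.7% lower, and in the highest 21.2% and 49.6%. By at least 2-fold they were 15.7% and 6.01% in the lowest and 0.176% and 1.01% in the highest. The part of level in the shares of the lists was not tested. The values of the 3 control and 3 KO libraries did not overlap for 61.9% of tested genes.

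**Figure D1:**
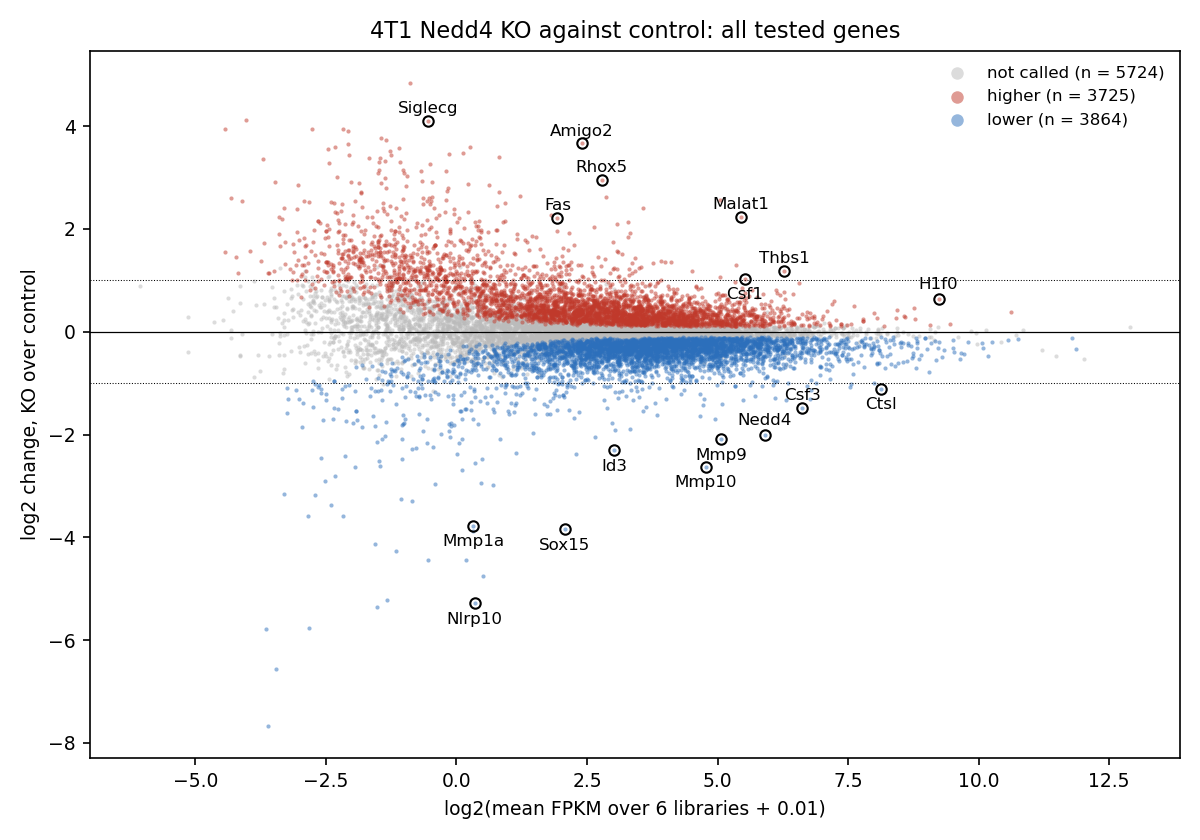
Each point is 1 of 13313 tested genes; the x axis is the log2 of its mean FPKM over the 6 libraries (plus 0.01) and the y axis its log2 change in KO over control, with dotted lines at 2-fold. Red points passed the test upward and blue points downward. Among highly expressed genes, Csf3, Ctsl, Mmp10 and Mmp9 lie below the 2-fold line and Thbs1 and Csf1 just above the upper one; most changes over 2-fold are at low levels.

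Large changes in both directions were found among transcripts of secreted proteins. Of 551 tested genes that the deposited table annotates to the extracellular space, 192 were called higher and 173 lower, and 12.3% were higher and 7.08% lower by at least 2-fold, against 5.68% and 1.97% of all tested genes. Coding genes of the lowest level group had 15.7% and 6.01%. Of the annotated genes changed at least 2-fold, the 6 highest-expressed in each direction are given here, a choice made after values were seen. Csf3, the granulocyte growth factor G-CSF for which 4T1 tumours are known, fell from 144, 139 and 147 FPKM in controls to 55.3, 55.4 and 51.3 in KO (-1.49 ± 0.05; edgeR, adjusted p = 3.31e-17). Csf1, the growth factor of macrophages, went the other way, from 29.9, 28.2 and 29.2 to 60.3, 64 and 64.7 FPKM (1.03 ± 0.04; edgeR, adjusted p = 2.95e-15). Neither gene's control and KO libraries overlapped, so transcripts for a neutrophil factor and a macrophage factor moved in opposite directions in the same cells.

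Other cytokine and growth factor transcripts were lower as well. Il24, an interleukin of the IL-10 family, went from 63.6 ± 3.01 to 26.7 ± 2.36 FPKM (SD, n = 3) and Areg, amphiregulin, a ligand of the EGF receptor, from 72.6 ± 2.85 to 32.1 ± 1.54. Btc, another EGF receptor ligand, fell by 1.56 ± 0.10, Tslp, an epithelial cytokine, by 1.65 ± 0.10, Il23a, a subunit of IL-23, by 1.54 ± 0.08, and the IL-6 family members Il11 and Lif by 1.69 ± 0.30 and 1.13 ± 0.06. Among genes that rose, Vegfd, a ligand of lymphatic growth, gained 2.005 ± 0.32, Il15 1.29 ± 0.22, and Eda, a TNF-family ligand of skin appendages, 1.79 ± 0.17, all from under 1.1 FPKM in each control library. Btc, Tslp, Il23a, Il11, Lif, Vegfd and Il15 were also chosen after their values were seen. Thbs1, thrombospondin, had the highest level among surface-annotated genes that rose at least 2-fold, from 44, 47.1 and 45.9 FPKM to 108, 111 and 111 (1.19 ± 0.04). Col5a1, a fibrillar collagen chain, rose from 9.703 to 20.5 FPKM and Ccn4, a matricellular protein, from 4.603 to 11.3. S100a16, a calcium-binding protein, rose by 1.55 ± 0.13 and Gpt2, an alanine aminotransferase that carries the same annotation, by 1.58 ± 0.12.

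Several proteases that cut the extracellular matrix were lower. Mmp10, stromelysin 2, stood at 49.98, 48.5 and 41.99 FPKM in controls and 9.44, 6.76 and 7.88 in KO (-2.62 ± 0.10; edgeR, adjusted p = 2.53e-12), and Mmp9, gelatinase B, at 57.1, 57.98 and 47.03 and 14.3, 11.5 and 14.4 (-2.09 ± 0.12). Control replicate 3 was the lowest control for both, yet lay over 3-fold above every KO library. Mmp1a, a collagenase annotated as a polymorphic pseudogene in GENCODE M21, fell by 3.78 ± 0.39 from a low level. Plau, the urokinase plasminogen activator, fell from 96.2 to 41.3 FPKM, and its receptor Plaur by 0.70 ± 0.05. Ctsl, a lysosomal cysteine protease that is also secreted, fell from 378 to 185 FPKM, the most abundant secreted transcript to fall 2-fold or more.

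Promoters of Mmp10, Mmp1a, Il11 and Plet1 are shown because they share a short motif, a choice made after the matches were seen. The windows run from 250 bases before to 50 after a RefSeq start (GRCm38.p6), and 9563 of 13313 tested genes matched a promoter by symbol. The AP-1 motif, TGANTCA searched on both strands, is the site bound by JUN and FOS dimers and was 1 of 10 motifs searched. It occurred in a promoter of 26 of 159 matched genes that were lower by at least 2-fold (16.4%), Nedd4 itself among the 26, against 32 of 423 that were higher by at least 2-fold (7.57%), 6.57% of all matched tested genes and 7.81% of all 32851 promoters. Of genes named above that fell at least 2-fold, Mmp10, Mmp1a, Il11 and Lif are among the 26. Csf3, Ctsl, Plau, Areg, Il24, Mmp9, Btc, Tslp and Il23a are not, and a gene without a matched promoter could not be. Among all genes called lower, whatever the size, the share was 6.74%. Other motifs also differed in the 159 genes. The D-box (TTATGTAA) occurred in 3 (1.89%), against 0.565% of all matched tested genes, and the ATF4 element (TGATGNAAT) in 2 (1.26%), against 0.491%. CCAAT occurred in 37.1%, against 43.4%, and the E-box (CACGTG) in 11.3%, against 11.8%. A match is a description of letters, not a bound site, and a gene with several promoters counts if any holds it. Capitals mark the match in 4 of the 26, each 5′ to 3′ along the gene, with the chromosome, start, end and strand of the window:
Mmp10 (chr9:7502092-7502391, plus strand): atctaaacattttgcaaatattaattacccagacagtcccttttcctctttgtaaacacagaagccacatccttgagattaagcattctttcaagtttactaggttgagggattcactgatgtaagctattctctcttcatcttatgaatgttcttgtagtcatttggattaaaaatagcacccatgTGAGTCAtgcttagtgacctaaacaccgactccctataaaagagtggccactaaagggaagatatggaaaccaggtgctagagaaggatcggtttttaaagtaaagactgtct
Mmp1a (chr9:7463891-7464190, plus strand): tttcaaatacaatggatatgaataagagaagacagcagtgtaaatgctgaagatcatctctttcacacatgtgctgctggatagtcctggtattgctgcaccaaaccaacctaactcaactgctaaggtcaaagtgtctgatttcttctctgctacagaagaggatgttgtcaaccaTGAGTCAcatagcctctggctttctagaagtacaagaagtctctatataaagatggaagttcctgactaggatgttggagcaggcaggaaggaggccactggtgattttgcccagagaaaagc
Il11 (chr7:4778092-4778391, minus strand): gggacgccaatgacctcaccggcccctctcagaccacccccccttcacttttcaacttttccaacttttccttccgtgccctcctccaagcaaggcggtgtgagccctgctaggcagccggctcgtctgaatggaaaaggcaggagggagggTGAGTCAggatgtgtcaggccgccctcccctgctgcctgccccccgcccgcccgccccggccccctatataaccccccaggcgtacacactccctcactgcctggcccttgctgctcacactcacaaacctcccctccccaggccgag
Plet1 (chr9:50494275-50494574, plus strand): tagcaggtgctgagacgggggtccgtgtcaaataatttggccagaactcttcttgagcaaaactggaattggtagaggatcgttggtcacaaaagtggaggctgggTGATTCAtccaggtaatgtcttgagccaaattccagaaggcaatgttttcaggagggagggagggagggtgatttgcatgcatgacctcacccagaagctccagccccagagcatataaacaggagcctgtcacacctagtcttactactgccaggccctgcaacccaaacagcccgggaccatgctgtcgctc

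The matches begin -63 bases from the start in Mmp10, -73 in Mmp1a, -98 in Il11 and -144 in Plet1. Plet1, a GPI-anchored epithelial surface protein, fell from 166, 157 and 139 FPKM to 67.5, 64.6 and 63.95 (-1.31 ± 0.06). Il11 was low throughout, at 1.46, 1.96 and 1.44 FPKM in controls and 0.65, 0.23 and 0.68 in KO (-1.69 ± 0.30). Jun, whose product is the common partner in AP-1, fell by 0.41 ± 0.05, and Egr1, another early-response factor, by 1.08 ± 0.09. Plet1, Jun and Egr1 were chosen after their values were seen, and whether AP-1 has a part in these changes was not tested.

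**Figure D2:**
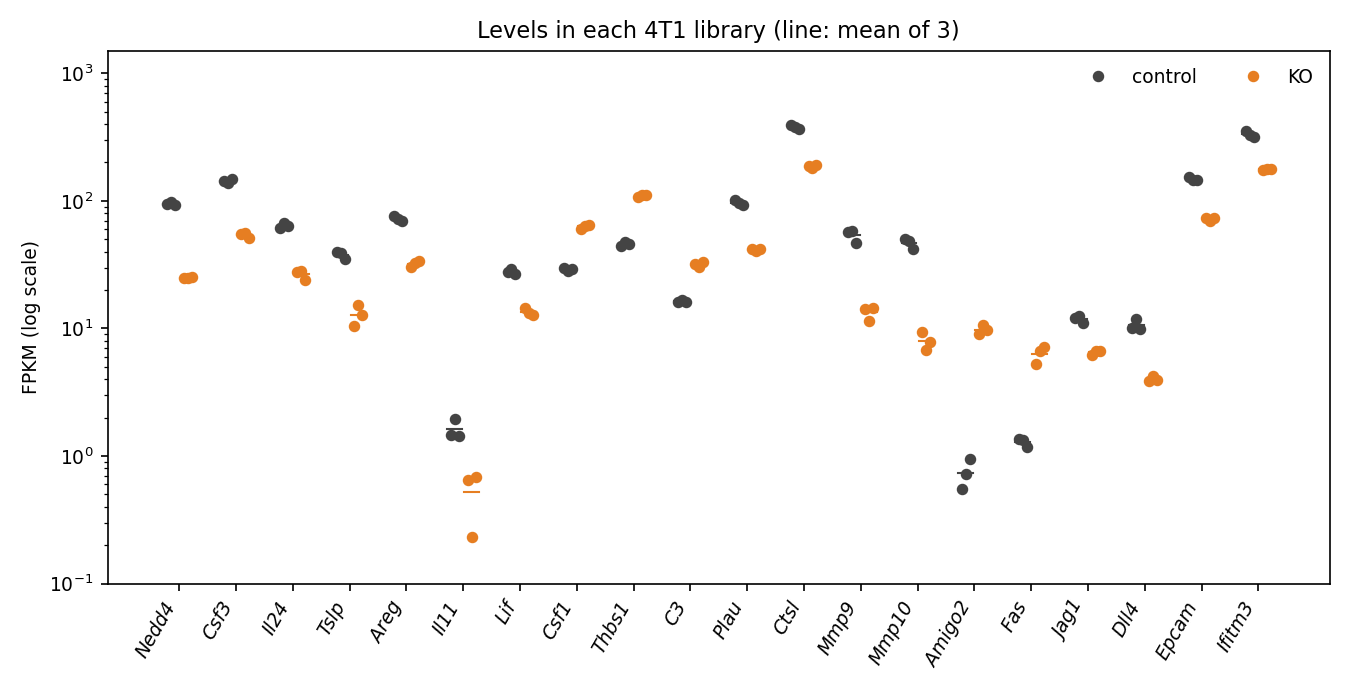
FPKM on a log axis for 20 genes in each of the 3 control (grey) and 3 KO (orange) libraries, with the mean of each group as a line. No gene has overlapping groups; Nedd4, Csf3, Il24, Tslp, Areg, Mmp9 and Mmp10 are lower in KO, and Csf1, Thbs1, C3, Amigo2 and Fas higher. Il11 has a wide spread, with 1 KO library at 0.23 and the others at 0.65 and 0.68.

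Complement and coagulation genes split: 7 of 20 tested members were higher and 8 lower. C3, the central complement component, rose from 16.2, 16.6 and 16.1 FPKM to 32.04, 30.1 and 33.2 (0.89 ± 0.05; edgeR, adjusted p = 5.03e-13). The C1-type proteases C1rl, C1s1 and C1ra rose by 3.12 ± 0.34, 2.74 ± 0.27 and 1.52 ± 0.25 from under 0.6 FPKM in every control library; reads of C1ra and C1s1 may be shared with close copies. Tfpi, an inhibitor of the tissue factor pathway, rose by 1.42 ± 0.16, whereas tissue factor itself, F3, was not called (12.2 and 13.4 FPKM). On the lower side were Cd55, which protects cells from complement (-1.51 ± 0.18), the protease-activated receptor F2rl1 (-0.86 ± 0.06), Clu, clusterin (-0.69 ± 0.05), and Procr, the protein C receptor (-0.52 ± 0.05). With genes under a mean of 1 FPKM left out, 3 members of this list were higher instead of 7.

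Serpins and laminins moved up more often than down. Of 12 tested serpins 7 were higher and 2 lower, with Serpinb2, PAI-2, at 0.21, 0.14 and 0.16 FPKM in controls and 1.96, 2.36 and 2.3 in KO and Serpine2, protease nexin 1, down from 13.1 to 5.83 FPKM. Serpinb9b, Serpinb6b and Serpinb9 rose by 0.57 to 1.21, values that are uncertain because these genes have near-identical copies. Among 20 laminin and basement membrane genes, 10 were higher and 5 lower, with a median of 0.15. With genes under a mean of 1 FPKM left out, 7 were higher and 5 lower, and the median was 0.02. Col4a5, a collagen IV chain, rose from 0.187 to 1.19 FPKM, and Hspg2, perlecan, from 37.5, 47.1 and 42.7 to 76.1, 79 and 69.3. Lamb2 and Agrn rose by 0.73 ± 0.06 and 0.47 ± 0.04. Lama3 and Lamb3, laminin chains of epithelial anchorage, fell by 0.90 ± 0.06 and 0.33 ± 0.05, and Lamb3 shrank to -0.18 when changes were centred on each chromosome's median (chromosome centring).

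Growth factor lists were mixed. In the FGF and IGF axis 4 of 13 tested genes were higher and 3 lower, or 2 and 3 without control replicate 2. Igfbp4, which binds and holds IGFs, fell from 315 to 217 FPKM, Igfbp7 by 0.79 ± 0.11, and Igf2r, which clears IGF2, by 0.47 ± 0.05; Igf1r, a receptor that NEDD4 adaptors are known to act on, was not called (8.26 and 8.57 FPKM). Among BMP, GDF and activin genes 1 of 10 was higher and 5 lower, a count that was 0 and 3 without control replicate 1, 2 higher and 3 lower with scaling to total counts and 2 and 4 with chromosome centring, which also turned the median from -0.11 to 0.03. The called genes included Bmp1, a procollagen protease, at -0.47 ± 0.04, and Twsg1 at -0.33 ± 0.05, while Inhba (20.8 and 21.8 FPKM) and Fst (1.97 and 2.51) were not called. Wnt genes numbered 7 higher and 12 lower of 26 (8 higher and 9 lower with scaling to total counts). By at least 2-fold 4 were higher (15.4%) and 1 lower (3.85%), against 5.68% and 1.97% of all tested genes. Coding genes of the lowest level group had 15.7% and 6.01%. The ligands Wnt9a and Wnt10b rose by 1.08 ± 0.14 and 1.02 ± 0.16 and Porcn, which lipidates Wnts, by 1.33 ± 0.26, whereas Wnt10a fell by 0.91 ± 0.14 and the receptors Fzd7 and Lgr6 by 0.76 ± 0.06 and 0.63 ± 0.06. Peptide hormones split 7 higher and 9 lower of 21, with 3 higher (14.3%) and 1 lower (4.76%) by at least 2-fold. Edn1, endothelin, rose from 0.51 to 1.79 FPKM and Vgf by 0.94 ± 0.19. Adm, adrenomedullin, fell from 2.83, 1.81 and 3.92 FPKM to 0.33, 0.53 and 0.28 (-2.98 ± 0.32), Angptl2 by 0.72 ± 0.05 and Stc2 by 0.66 ± 0.14.

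Surface proteins were called about as often up as down, 213 higher and 217 lower of 659 annotated to the cell surface or plasma membrane, and 7.13% and 5.16% by at least 2-fold. Among adhesion genes, Epcam fell from 155, 145 and 147 FPKM to 73.9, 69.3 and 72.9, and Itga2, the collagen-binding integrin subunit, dropped from 45.8, 50.8 and 44.3 to 16.9, 14.8 and 14.3 (-1.69 ± 0.07). Has2, a synthase of the matrix polymer hyaluronan, fell from 37.8 to 14.9 FPKM, Ifitm3, a restriction factor in endosomes, from 334 to 176, Gpa33, an epithelial junction antigen, by 1.03 ± 0.05, and the membrane protease Tmprss11e by 1.06 ± 0.05. Of those that rose, Pmp22, a tetraspan membrane protein, went from 7.32 to 19.7 FPKM, the water channel Aqp5 from 3.36 to 9.74, and Icam1, the leukocyte adhesion ligand, from 0.6 to 2.42. The genes of this paragraph were chosen after their values were seen.

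Receptors of the TNF superfamily included one large increase. Fas, the death receptor, rose from 1.35, 1.33 and 1.17 FPKM in controls to 5.3, 6.62 and 7.13 in KO (2.22 ± 0.16; edgeR, adjusted p = 2.81e-11), a 4.66-fold change. Of 21 tested members 2 were higher and 7 lower. Tnfsf9, the ligand of 4-1BB on T cells, fell from 11.8 to 5.54 FPKM, Tnfrsf21, another death receptor, by 0.54 ± 0.07, Ltbr, the lymphotoxin receptor, by 0.46 ± 0.06, and Tnfrsf1a, the main TNF receptor, by 0.24 ± 0.05. The list held 5 higher and 6 lower with scaling to total counts, and 4 and 7 with the size factors of DESeq2 or with genes under a mean of 1 FPKM left out.

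Receptor tyrosine kinases leaned upward, 13 higher and 5 lower of 28 (46.4% and 17.9%), or 12 and 3 with genes under a mean of 1 FPKM left out. Axl, a receptor of Gas6 and the most abundant of those named, rose from 299, 295 and 311 to 389, 377 and 381 FPKM, a change of 0.26 ± 0.04, or 0.17 with chromosome centring. Epha4, Ror1 and Mertk rose by 0.86 ± 0.15, 1.15 ± 0.21 and 0.66 ± 0.18, each from under 1.4 FPKM in every control. Flt1, a VEGF receptor, fell by 0.59 ± 0.06, and Met was not called (36.04 and 36.9 FPKM). Of 8 receptor-type tyrosine phosphatases 5 were higher, Ptpra and Ptprs by 0.26 ± 0.05 and 0.18 ± 0.04 (0.13 and 0.10 with chromosome centring), and 2 lower (5 higher and 1 lower with scaling to total counts), with Ptprk at -0.47 ± 0.05.

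Guidance receptors and their ligands were mixed. Nrp1, a coreceptor of semaphorins and VEGF, rose from 3.61 to 5.66 FPKM, and the plexins Plxnb2 and Plxna1 by 0.42 ± 0.04 and 0.36 ± 0.05, while Sema7a fell by 0.58 ± 0.10 and Sema6b by 0.39 ± 0.08, in a list with 8 higher and 9 lower of 23, or 5 and 7 with genes under a mean of 1 FPKM left out. Among ephrins and Eph receptors 7 of 16 were higher and 5 lower, with Efna3 up from 1.95 to 5.33 FPKM and Efna1, Ephb4 and Epha8 down by 0.26 ± 0.06, 0.33 ± 0.05 and 0.46 ± 0.09; Efna1 stood at -0.41 with chromosome centring. Leucine-rich repeat adhesion and netrin receptor genes had 2 higher and 6 lower of 13, or 5 and 6 with no low-count filter and 1 and 7 with chromosome centring. Amigo2 was higher, at 0.55, 0.72 and 0.95 FPKM in controls and 8.98, 10.6 and 9.76 in KO (3.66 ± 0.14), which overlaps Pced1b on the other strand; Pced1b itself rose by 0.54 ± 0.10. Flrt3, Lingo3 and Unc5b fell by 0.74 ± 0.07, 0.59 ± 0.08 and 0.47 ± 0.05.

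Tetraspanins and GPI-anchored proteins sit on the cell surface and on vesicles that cells release. Cd9 fell from 313, 288 and 295 FPKM to 252, 234 and 251, Cd63 by 0.42 ± 0.04 and Cd82 by 0.35 ± 0.05, whereas Tspan15, Tspan13 and Tspan5 rose by 0.70 ± 0.11, 0.56 ± 0.13 and 0.56 ± 0.07 from lower levels. Of 19 tetraspanins 8 were higher and 7 lower, but 7 and 4 without control replicate 1 and 5 and 5 without KO replicate 3. In the Ly6, GPI-anchored and glycocalyx list 7 of 18 were higher and 5 lower. Cd109, which binds TGF-beta, rose from 2.22 to 5.63 FPKM, and Msln, mesothelin, and Prnp, the prion protein, by 0.29 ± 0.07 and 0.28 ± 0.05, the latter at 0.15 with chromosome centring. Cd24a fell from 152 to 99.4 FPKM and Lypd3 by 0.69 ± 0.10.

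G-protein-coupled receptors split 17 higher and 20 lower of 56. Gabbr1, a subunit of the GABA-B receptor, rose from 3.62 to 8.497 FPKM, Calcrl, the receptor subunit for adrenomedullin and CGRP, by 0.76 ± 0.13, and the adhesion receptor Adgrf5 by 1.14 ± 0.12. Cxcr3, a chemokine receptor best known from T cells, fell from 1.53 to 0.553 FPKM, the serotonin receptor Htr5b from 17.5 to 9.29, and Gprc5a by 0.31 ± 0.05; Adgre5 fell by 1.19 ± 0.17 and overlaps Ddx39a on the other strand.

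Of 15 tested potassium channel genes 1 was higher and 7 lower, but 3 higher and 5 lower with scaling to total counts, and 3 and 7 without KO replicate 3 or with no low-count filter. Those lower included Kcnn4, a calcium-gated channel at 17.3, 17.6 and 16.9 FPKM in controls and 11.1, 11.1 and 10.3 in KO, Kcnk2 at -0.92 ± 0.07 and Kcnj4 at -1.31 ± 0.16. Among 57 calcium, sodium, chloride, TRP, gap junction and Piezo genes 25 were higher and 17 lower. Panx1, a pannexin, fell from 1.28 to 0.337 FPKM, Lrrc8c, a volume-regulated anion channel subunit, by 0.74 ± 0.05, Orai1, the store-operated calcium channel, by 0.68 ± 0.10 and Gja1, connexin 43, by 0.57 ± 0.04. Pkd1, polycystin 1, rose by 0.83 ± 0.05, the chloride channels Clcn2 and Clcn6 by 0.80 ± 0.12 and 0.58 ± 0.08, and the stretch-gated channel Piezo1 by 0.21 ± 0.05. Scnn1a, a subunit of ENaC, the sodium channel that NEDD4-class ligases are known to regulate, was near silent (0.14 and 0.2 FPKM) and not called.

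Amino acid carriers leaned upward, 10 higher and 5 lower of 24 (11 higher and 3 lower with scaling to total counts; 11 and 8 with no low-count filter). Slc6a9, a glycine carrier, rose from 2.08, 1.96 and 1.76 FPKM to 4.88, 5.5 and 6.33, Slc1a4, a carrier of serine and alanine, from 8.23 to 16.2, and both chains of the leucine exchanger, Slc7a5 and Slc3a2, by 0.46 ± 0.06 and 0.46 ± 0.05. Slc38a1, a glutamine carrier, fell by 0.37 ± 0.05. In iron uptake, Tfrc, the transferrin receptor, fell from 48.3, 48.6 and 50.5 FPKM to 30.5, 29.1 and 27.8, and Steap3, an endosomal iron reductase, from 4.74 to 2.52, while Ftl1, a ferritin chain, rose by 0.47 ± 0.05 with reads it may share with copies. The metal-binding metallothioneins Mt2 and Mt1 fell by 1.30 ± 0.12 and 0.49 ± 0.09, with reads that these close copies may share. In the zinc, copper and iron list as a whole 7 of 38 were higher and 15 lower, 11 and 15 with scaling to total counts. Over all 193 solute carriers 51 were higher and 62 lower, a balance that turned to 66 higher and 51 lower with scaling to total counts. Among them were Slc4a11, a proton and water carrier, down from 4.21 to 1.47 FPKM, the glucose carrier Slc2a1, down by 0.85 ± 0.07, and Slc25a27, a mitochondrial carrier, up by 1.30 ± 0.19.

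The Notch ligands Dll4 and Jag1 fell. Dll4 went from 10.1, 11.9 and 9.93 FPKM to 3.9, 4.23 and 3.92 (-1.49 ± 0.09), with Gm14207 overlapping on the other strand, and Jag1 from 12.1, 12.6 and 11.1 to 6.21, 6.65 and 6.66 (-0.96 ± 0.06). Subunits of gamma-secretase, the protease that frees the active Notch fragment, also fell, Ncstn by 0.69 ± 0.05 and Psen2 by 0.69 ± 0.12, whereas Aph1b rose by 0.49 ± 0.12. Numbl, a NUMB-like adaptor that opposes Notch, rose from 1.88 to 4.32 FPKM and Hes7, a Notch target, by 0.92 ± 0.23. Notch1 was not called (8.097 and 8.47 FPKM), and the list held 12 higher and 10 lower of 33.

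**Figure D3:**
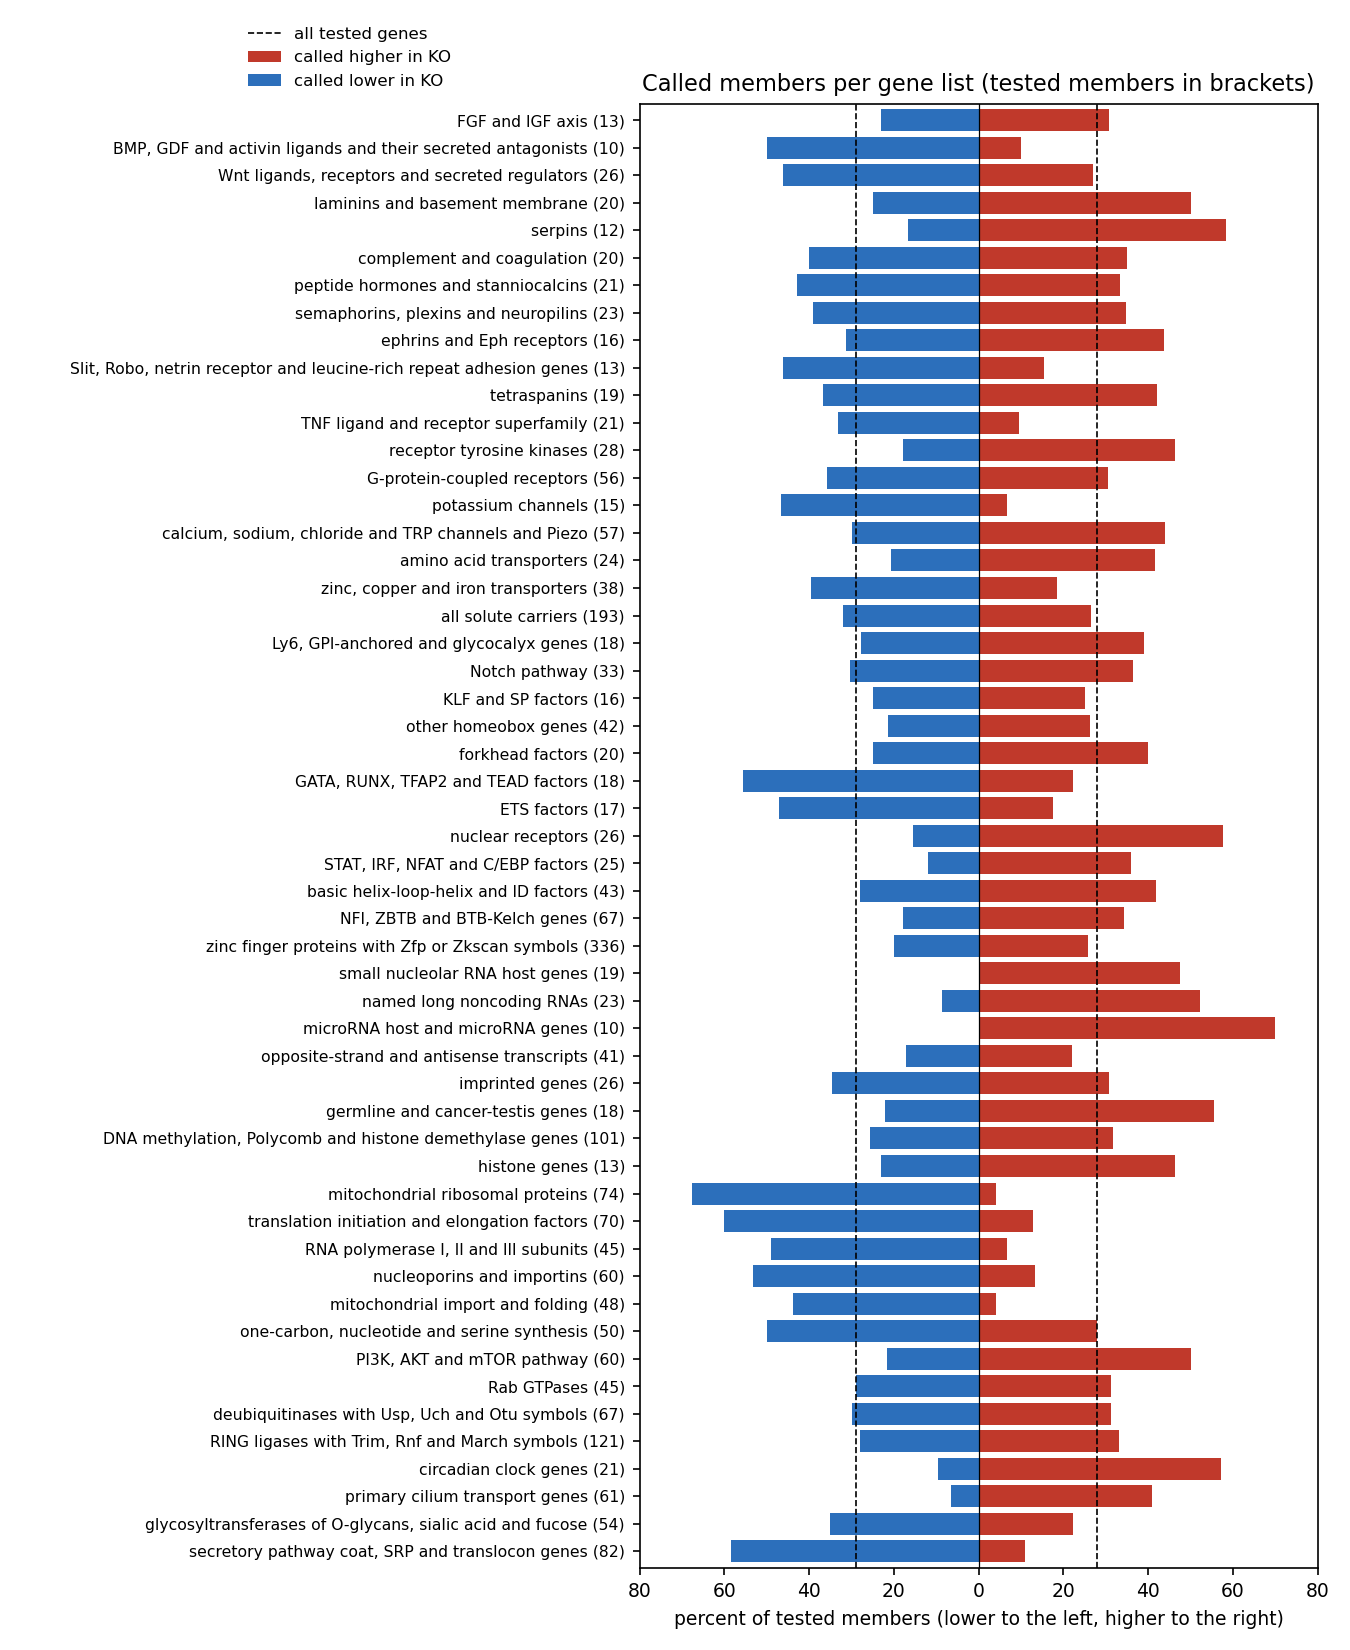
Percent of tested members called lower (blue, left) and higher (red, right) for gene lists of the text with at least 10 tested members; dashed lines give the shares over all 13313 tested genes. The mitochondrial ribosome, translation factor and secretory pathway lists reach 50 of 74, 42 of 70 and 48 of 82 lower, and the circadian clock list 12 of 21 higher.

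Of 698 genes annotated as transcription factors 208 were higher (29.8%) and 148 lower (21.2%), against 28% and 29% of all tested genes. The higher share was near that of all genes, and the lower share was smaller. Coding genes of the lowest level group and the next had 14.7% and 22.7% lower. Sox15 fell from 8.92, 7.68 and 6.95 FPKM in controls to 0.69, 0.35 and 0.66 in KO (-3.85 ± 0.26; edgeR, adjusted p = 1.10e-11). It overlaps Mpdu1 on the other strand, which fell by 0.93 ± 0.11. Id3, which blocks DNA binding by basic helix-loop-helix partners, fell from 13.7, 13.2 and 13 to 2.84, 2.96 and 2.76 FPKM and Id1 by 0.45 ± 0.08. Max, the obligate partner of MYC, fell from 29.7, 28.3 and 28.6 to 16.8, 17.4 and 16.5 FPKM, while Mxd4, which competes with MYC for Max, rose by 0.90 ± 0.11. Bmyc, a MYC-related gene, had 37, 41 and 42 counts in control libraries and 2, 0 and 3 in KO. Tfeb and Tfe3, regulators of lysosomal genes, rose by 0.74 ± 0.13 and 0.69 ± 0.06; Tfe3 lies on the X chromosome and stood at 0.39 with chromosome centring. Ahr rose by 0.43 ± 0.06. Ddit3, a stress-induced C/EBP relative, rose by 1.30 ± 0.16, Zfp57 by 1.02 ± 0.12 and Zfp810 by 1.41 ± 0.16, and Ovol1, Rpf2 and Zfp125 fell by 1.07 ± 0.14, 1.06 ± 0.07 and 1.23 ± 0.13; these 6 had high levels among annotated factors changed at least 2-fold and were chosen after their values were seen. Zfp125 is classed as a pseudogene and overlaps 2 tested genes on the same strand. The annotation as a factor, that of Rpf2 included, is the deposited one and was not checked. The list of basic helix-loop-helix and ID factors held 18 higher and 12 lower of 43.

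Of 18 GATA, RUNX, TFAP2 and TEAD genes 4 were higher and 10 lower, but 6 higher and 6 lower with scaling to total counts. Gata3, the luminal factor, fell from 35.02, 36.1 and 36.4 FPKM to 28.3, 26.6 and 27.6, Tfap2a by 0.37 ± 0.06 (-0.22 with chromosome centring), Cbfb by 0.36 ± 0.05 and Tead4 by 0.44 ± 0.07, while Tead3 rose from 2.597 to 5.23. Among 17 ETS factors 3 were higher and 8 lower (5 higher and 8 lower with scaling to total counts), with Etv6, Elf1 and Etv4 down by 0.57 ± 0.06, 0.56 ± 0.06 and 0.38 ± 0.05; Elf3 was not called (14.9 and 14.7 FPKM), and none of the 3 higher calls held with chromosome centring. Sox9 fell from 27.5 to 19.9 FPKM and Sox4 by 0.26 ± 0.05 (-0.11 with chromosome centring), so that 3 of 6 SOX genes were lower and 2 higher (1 higher and 3 lower with chromosome centring). Klf4, a factor of epithelial barriers, rose by 0.55 ± 0.11 and Klf10 and Klf16 fell by 0.48 ± 0.05 and 0.54 ± 0.07 (4 higher and 4 lower of 16 KLF and SP genes, 6 higher and 3 lower with scaling to total counts and 5 and 2 with chromosome centring).

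Nuclear receptors and forkhead factors leaned upward. Of 26 nuclear receptors 15 were higher and 4 lower, or 13 and 2 with chromosome centring and 14 and 2 with genes under a mean of 1 FPKM left out: Rarg, a retinoic acid receptor, rose from 16.7, 16.03 and 16.7 FPKM to 28.2, 26.1 and 28.1, the vitamin D receptor Vdr by 0.63 ± 0.14 and the glucocorticoid receptor Nr3c1 by 0.23 ± 0.05, while Ppard fell by 0.61 ± 0.06. Esr1 was low and not called (0.64 and 0.707 FPKM). Forkhead factors had 8 higher and 5 lower of 20 (12 higher and 4 lower with scaling to total counts), with Foxo1, a target of AKT, up by 0.52 ± 0.07, Foxp1 by 0.46 ± 0.06 and the mitotic factor Foxm1 from 40.7 to 56.2 FPKM; Foxo4 rose by 0.76 ± 0.08, or 0.46 with chromosome centring, Foxo3 was not called (5.53 and 5.76 FPKM), and Foxc1 and Foxc2 fell by 0.49 ± 0.06 and 0.43 ± 0.08. In the STAT, IRF, NFAT and C/EBP list 9 of 25 were higher and 3 lower (14 higher and 3 lower with scaling to total counts). Nfatc2 rose by 0.78 ± 0.08, Stat2 by 0.60 ± 0.08, Cebpb by 0.30 ± 0.07 and Stat3 by 0.23 ± 0.05 (0.17 and 0.35 with chromosome centring), Stat6 fell from 42.8, 43.2 and 45.3 to 29.5, 29.5 and 25.99 FPKM, and Irf1 was not called (9.15 and 10.9).

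Homeobox genes held single large changes rather than a shared one. Rhox5, a homeobox gene best known from testis and ovary, rose from 1.95, 1.01 and 1.48 FPKM to 12.6, 11.7 and 12.5, and Msx3 fell from 1.66 to 0.393, Irx2 from 28.7 to 16.8 (11 higher and 9 lower of 42). The HOX cluster gene Hoxa10 fell by 0.64 ± 0.08 and Hoxa7 rose by 0.35 ± 0.09 (2 higher and 3 lower of 9), where Hoxa7 overlaps an antisense transcript. Nfib rose by 0.37 ± 0.04, and Klhl30 and Zbtb32 from 0.17 to 1.99 and 1.08 FPKM in a list of NFI, ZBTB and Kelch genes with 23 higher and 12 lower of 67 (28 higher and 8 lower with scaling to total counts). Among 336 zinc finger genes with Zfp or Zkscan symbols 87 were higher and 67 lower (25.9% and 19.9%; 107 higher and 45 lower with scaling to total counts). Zfp469 rose by 1.28 ± 0.18 and Zfp422 and Zfp979 fell by 0.69 ± 0.07 and 0.68 ± 0.07, with reads that close relatives may share.

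Clock genes rose more often than tested genes at large. Of 21 tested genes of the circadian oscillator and its output 12 were higher (57.1%) and 2 lower, and the median change was 0.28. Dbp, an output factor under direct control of CLOCK and BMAL1, went from 1.53, 1.16 and 1.63 FPKM to 4.09, 5.05 and 4.72 (1.60 ± 0.14), Per1, a repressor arm of the loop, from 5.32, 5.55 and 6.05 to 9.36, 8.8 and 9.83 (0.65 ± 0.07), Per3 from 2.29 to 5.11, Tef, another output factor, by 0.69 ± 0.06 and Nr1d1, REV-ERB alpha, by 0.33 ± 0.05. Against them Timeless was lower by 0.39 ± 0.07, or -0.25 with chromosome centring. Of 61 genes for transport along the primary cilium and for Hedgehog signalling 25 were higher (41%), 4 lower (6.56%) and 32 not called. Of all tested genes 28% were higher and 29% lower. Gli1, the readout factor of Hedgehog, rose from 0.593 to 1.57 FPKM, its target and receptor Ptch1 by 0.31 ± 0.06, and the BBSome subunit Bbs7 by 1.19 ± 0.12, while Dync2i1 fell by 0.64 ± 0.05. Dbp, Per3, Nr1d1 and Gli1 overlap other tested genes, so their reads are less certain.

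Noncoding transcripts were called higher far more often than lower. Of 759 tested lncRNA genes 292 were higher (38.5%) and 65 lower (8.56%), with a median change of 0.43, and of 175 genes with the annotation class TEC, unspliced transcripts still to be checked experimentally, 86 were higher and 6 lower. Protein-coding genes had 3226 higher and 3592 lower of 11392, and pseudogenes 66 higher and 191 lower of 828. The difference between classes was also there at matched level: among genes at 1 to 4 CPM 37.5% of lncRNA genes and 50.5% of TEC genes were higher, against 29.2% of coding genes, and over 16 CPM 44.6% of lncRNA genes against 27.9%. No test was made of the difference between classes. The KO libraries also had more genes with a count, as given above, and the part of that in these shares was not tested.

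**Figure D4:**
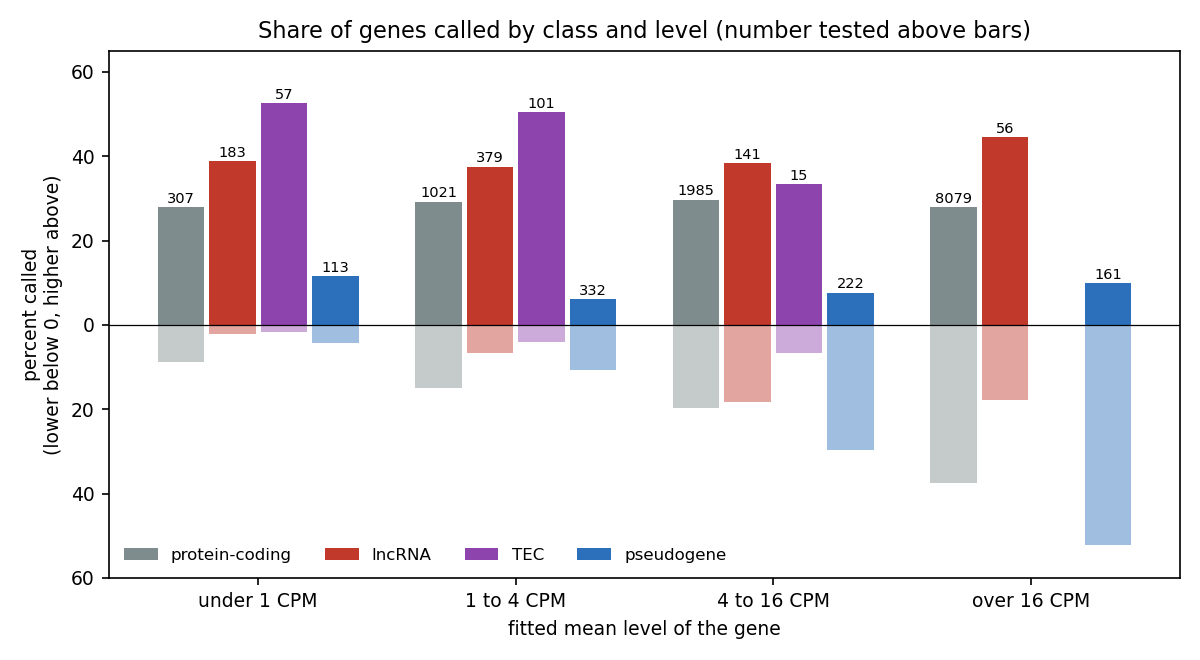
Percent of tested genes called higher (above 0) and lower (below 0, pale) in 4 classes at 4 levels of fitted mean CPM, with the number tested above each bar; TEC genes over 16 CPM (2 genes) are not drawn. lncRNA bars lie above the coding bars upward and below them in size downward at each level, and pseudogenes over 16 CPM are lower in 84 of 161 cases.

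Several lncRNAs with an established name rose. Malat1, a nuclear RNA of splicing speckles, was at 9.92, 11.9 and 22.2 FPKM in controls and 68.5, 70.02 and 80.2 in KO (2.24 ± 0.34), and Neat1, the scaffold of paraspeckles, at 2.44, 2.8 and 4 and 11.4, 15.7 and 14.2 (2.09 ± 0.24). For both, control replicate 3 was the highest control and still below every KO library. Of 23 lncRNAs with a known name 12 were higher and 2 lower. Mir100hg, host transcript of a microRNA cluster, rose from 3.28, 3.59 and 5.45 to 15.2, 16.8 and 14.4 FPKM (1.84 ± 0.22), and so did Gm28119 within it. Mature microRNAs were not measured; miR-100 and miR-125b of its cluster are shown with the seed (bases 2 to 8) in capitals, since the seed sets which messages they could bind:
mmu-miR-100-5p (chr9:41531437-41531458, plus strand, GRCm38.p6): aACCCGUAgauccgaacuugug
mmu-miR-125b-5p (chr9:41581940-41581961, plus strand, GRCm38.p6): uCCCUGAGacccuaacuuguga

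A list of small nucleolar RNA hosts with a few other noncoding genes had 9 of 19 higher and none lower by the edgeR test. In it Snhg20 rose by 0.64 ± 0.18, or 0.40 without control replicate 2, Gas5 was not called (13.5 and 15.5 FPKM), and Mir17hg, the host of a microRNA cluster and no small nucleolar RNA host, rose by 0.62 ± 0.16. Pvt1 was not called (2.13 and 2.52 FPKM). Of 10 microRNA and host genes 7 were higher, or 12 with no low-count filter, but Mir5125 and Mir1898 lie inside Srrm2 and Zfr, whose reads they may take. The largest changes among lncRNA genes were E230016K23Rik, at 0.03 and 1.04 FPKM, Platr14, up from 0.347 to 2.71, 1700109K24Rik, up by 2.79 ± 0.38, and, falling, Gm31342 from 8.11 to 1.64, Gm20471 from 11.96 to 3.74 and Gm26877 by 2.36 ± 0.37. E230016K23Rik, 1700109K24Rik, Gm20471 and Gm26877 overlap coding genes on the other strand. Some antisense transcripts were called in the direction of their sense gene: Ptgs2os2 fell by 0.99 ± 0.11 and Ptgs2 by 0.68 ± 0.04, Has2os by 0.76 ± 0.19 beside Has2, Junos by 0.64 ± 0.13 beside Jun, and Far1os rose by 2.07 ± 0.33 with Far1 at 0.50 ± 0.04. Has2os, Junos and Far1os overlap their sense genes, and without a stated strand setting the reads of such pairs cannot be told apart; Ptgs2os2 overlaps no tested gene. Of 41 antisense transcripts 9 were higher and 7 lower, with a median of 0.30. That count was 5 and 6 with DESeq2, 12 higher and 6 lower with scaling to total counts, 15 and 9 with no low-count filter and 3 and 6 with genes under a mean of 1 FPKM left out, where the median was -0.07.

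Of 101 chromatin genes 32 were higher and 26 lower, but 46 higher and 19 lower with scaling to total counts. Epop, a regulator of Polycomb complex 2, fell from 2.68, 1.62 and 2.62 FPKM to 0.18, 0.29 and 0.02 (-3.88 ± 0.37), the deacetylase Hdac2 from 41.7, 41.6 and 38.5 to 25.6, 24.6 and 23.9 and Bmi1, a Polycomb complex 1 subunit, by 0.68 ± 0.05. Among those that rose, Kmt5c, a histone H4 methyltransferase, gained 0.79 ± 0.07, Ezh1, the Polycomb methyltransferase of resting cells, 0.67 ± 0.08, and Cbx7 0.69 ± 0.12, while Ezh2, its counterpart in dividing cells, fell by 0.20 ± 0.04, or -0.12 with scaling to total counts. Dnmt1 (58.2 and 63.9 FPKM) and Uhrf1 (65.7 and 68.9), which maintain DNA methylation, were not called. The linker histone H1f0, known from cells that leave the cycle, rose from 481, 432 and 454 FPKM to 729, 723 and 788, and H1f2 from 1.48 to 3.21 (6 higher and 3 lower of 13 histone genes; replication-dependent histone messages lack a poly(A) tail, which the library kit selects). Of 18 germline and cancer-testis genes 10 were higher and 4 lower (55.6% and 22.2%). The shares were 28% and 29% of all tested genes, and 57.3% and 8.8% of those on the X chromosome, where Rhox5 lies. Besides Rhox5, Sycp1, of the meiotic synapse, rose from 0.393 to 1.33 FPKM, Spo11, the enzyme that starts meiotic recombination, from 0.437 to 1.48, and Maged2 from 2.39 to 5.39. Imprinted genes had 8 higher and 9 lower of 26 (10 higher and 7 lower with scaling to total counts): Phlda2 fell from 28.5 to 15.95 FPKM and Pon3 from 4.98 to 2.16, and Airn rose by 0.77 ± 0.15.

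Genes for making and importing proteins were lower in small steps. Of all tested genes 29% were lower. Of coding genes in the highest level group 49.6% were lower, with a median of -0.12. Of 74 mitochondrial ribosomal proteins 50 were lower (67.6%) and 3 higher, with a median of -0.24, and 1 was higher with chromosome centring or without KO replicate 3. Mrpl54 fell from 36.5, 33.6 and 38.8 FPKM to 19.8, 20.8 and 21.2, Mrpl15 by 0.64 ± 0.05 and Mrps14 by 0.61 ± 0.07, against Mrpl33, which rose by 0.59 ± 0.08 and overlaps Rbks. Translation factors had 42 lower (60%) and 9 higher of 70: Eif4a1, the helicase of initiation, fell from 58.7, 59.8 and 63.5 FPKM to 39.9, 38.9 and 38.6, Eif5 from 108, 104 and 107 to 69.98, 68.01 and 67.9, and Eef1e1 by 0.69 ± 0.06. The inhibitor Eif4ebp1 rose by 0.30 ± 0.06, the paralog Eif4a2 by 0.24 ± 0.05, and Eef2, the elongation factor, was not called (1075 and 1169 FPKM). Scaling to total counts left 36 mitochondrial ribosomal proteins and 36 translation factors lower, and 4 and 13 higher.

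RNA polymerase, nuclear pore and mitochondrial import genes were also called lower more often than higher. The shares lower were 48.9%, 53.3% and 43.8%, against 49.6% of coding genes in the highest level group and 38.4% in the next. Of 45 polymerase I, II and III genes 3 were higher and 22 lower (5 higher and 20 lower with scaling to total counts), and named changes lay in polymerase III and I: Gtf3c6 fell from 12.7, 12 and 10.8 FPKM to 5.97, 4.6 and 4.79, Polr3b from 11.6 to 6.28, Polr3d by 0.87 ± 0.08 and Polr1b by 0.73 ± 0.08, while Maf1, the repressor of polymerase III, rose from 22.9, 20.3 and 19.7 to 28.5, 29.5 and 30.4. Nucleoporins and importins had 32 lower and 8 higher of 60 (25 and 20 with scaling to total counts), with Ran, the GTPase of nuclear transport, down by 0.39 ± 0.04, Ranbp1 from 205 to 149 FPKM, and the importin Kpna2, of cycling cells, up from 2.01 to 4.52. Mitochondrial import and folding genes had 21 lower and 2 higher of 48 (17 and 9 with scaling to total counts); Tomm22, a receptor of the outer membrane, fell from 72.5, 71.3 and 74.6 to 44.3, 43.6 and 45.05 FPKM, the prohibitin Phb by 0.60 ± 0.06 and the chaperonin Hspd1 by 0.41 ± 0.04, or -0.25 with chromosome centring.

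Several serine and folate enzymes rose while several nucleotide enzymes fell. Phgdh and Psat1, the first steps of serine synthesis, rose from 51.7, 46.4 and 52.3 FPKM to 74.5, 77.1 and 87.2 and from 61.7, 58.1 and 69.7 to 98.8, 112 and 122, and the mitochondrial folate enzymes Mthfd2 and Aldh1l2 by 0.49 ± 0.06 and 1.58 ± 0.21. The cytosolic Shmt1 fell by 0.77 ± 0.06, as did the nucleotide kinases Nme1, from 25.7 to 13.7 FPKM, and Uck2, by 0.63 ± 0.04, and the first enzyme of purine synthesis, Ppat, by 0.62 ± 0.05. Over the list 14 of 50 were higher and 25 lower (17 higher and 20 lower with scaling to total counts).

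The PI3K and mTOR list leaned upward, 30 higher and 13 lower of 60. The sestrins Sesn2 and Sesn3, which restrain mTORC1, went from 2.19, 1.81 and 2.56 FPKM to 4.83, 5.84 and 6.08 and from 8.87, 9.08 and 7.92 to 16.8, 17.1 and 18.4, and Trib3, a pseudokinase that binds AKT, from 8.51, 7.51 and 8.41 to 16.2, 23.03 and 27.3. Irs2, an insulin receptor adaptor, rose by 0.38 ± 0.05 and the phosphatase gene Inpp4a by 0.81 ± 0.10, whereas Inpp4b fell from 8.78 to 5.05 FPKM, Trib1 from 22.2 to 12.03 and the kinase Sgk1, itself a known regulator of NEDD4-class ligases, from 14.5, 13.7 and 14.5 to 8.43, 7.96 and 8.94 (-0.83 ± 0.06). Cdkn1a, the cell cycle inhibitor p21, chosen after its values were seen, fell from 21.4, 21.9 and 20.6 FPKM to 7.75, 7.41 and 6.92 (-1.61 ± 0.06).

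Rab GTPases of vesicle traffic numbered 14 higher and 13 lower of 45 (18 higher and 11 lower with scaling to total counts), with Rab30 and Rab22a up by 0.85 ± 0.09 and 0.52 ± 0.05, Rab27a, of secretory vesicles, down by 0.74 ± 0.12, and Rab7 (112 and 114 FPKM) and Rab11a (35.4 and 36.1) not called.

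Ubiquitin enzymes outside the NEDD4 family were called in both directions, in a balance that depended on the scaling. The shares higher and lower were 31.3% and 29.9% for deubiquitinases and 33.1% and 28.1% for RING ligases. Both were near the 28% and 29% of all tested genes. Among 67 deubiquitinases 21 were higher and 20 lower (32 and 14 with scaling to total counts). Usp11 rose from 0.13, 0.24 and 0.2 FPKM to 1.21, 1.43 and 1.06 (2.61 ± 0.25), Cyld, which trims chains in NF-kappaB signalling, from 8.14 to 14.9, and Usp15 fell by 0.48 ± 0.05; Usp18 was not called (0.363 and 0.25). Among 121 RING ligases with Trim, Rnf and March symbols 40 were higher and 34 lower (51 and 22 with scaling to total counts), with Rnf217 at -0.63 ± 0.07, Trim65 at -0.62 ± 0.13 and Mdm2 at -0.30 ± 0.05, or -0.16 with chromosome centring.

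More secretory pathway genes were called lower than higher. Of all tested genes 29% were lower, and of coding genes in the highest level group 49.6%. Of 82 coat, signal recognition, translocon and glycan transfer genes 48 were lower (58.5%) and 9 higher, and the median was -0.19; with scaling to total counts 33 were lower and 14 higher. The translocon and its partners Sec61a1, Tram1 and Ssr1 fell by 0.50 ± 0.04, 0.66 ± 0.05 and 0.63 ± 0.05, the oligosaccharide transferase subunits Rpn1 and Dad1 by 0.57 ± 0.04 and 0.58 ± 0.06, and the retrieval receptor Kdelr2 from 79.3, 75.2 and 84.2 to 57.5, 58.3 and 59.3 FPKM. Sec61a2, a paralog, rose by 0.47 ± 0.07. Among 54 glycosyltransferases 12 were higher and 19 lower: Mgat2, which opens the way to complex N-glycans, fell from 56.7, 48.4 and 54.6 FPKM to 26.7, 27.4 and 27.1, while Galnt15 rose from 0.737 to 2.29 and the sialyltransferases St3gal5 and St3gal3 by 0.64 ± 0.09 and 0.56 ± 0.10. C1galt1 (23.3 and 23.7 FPKM) and St6gal1 (15.4 and 16.2) were not called.

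Among genes that reached 1 FPKM in a group, many of the largest changes were in genes with few counts in the other group. Siglecg, a sialic acid receptor of B cells, rose by 4.11 ± 0.30 with 7, 6 and 2 counts in the control libraries and 90, 109 and 118 in the KO libraries, and Camk4, Misp3 and Klk13 by 3.27 ± 0.30, 3.40 ± 0.30 and 2.92 ± 0.38; Klk13 overlaps an opposite-strand transcript. Neurl2 and Hacd4 rose by 2.92 ± 0.51 and 2.71 ± 0.13 and overlap Ctsa and Focad on the other strand. Epb41l4a, a cytoskeletal adaptor, rose by 2.87 ± 0.15. The largest falls included Nlrp10, a sensor protein without a leucine-rich repeat (-5.29 ± 0.28, with 6, 3 and 6 counts in the KO libraries), Cwh43 (-4.44 ± 0.36, with 4, 2 and 3), Miga1, of mitochondrial fusion (-4.45 ± 0.15), Tnnt3, a muscle troponin (-2.97 ± 0.42), Rbpms, an RNA-binding protein (-2.95 ± 0.19), Lyplal1 (-2.70 ± 0.34) and Tbc1d30 (-2.25 ± 0.20). A fitted fold change at a few counts depends on the prior count of the fit and is no bound.

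Genes of one chromosome tended to shift together. On the X chromosome 215 of 375 tested genes were higher (57.3%) and 33 lower, with a median of 0.30; the median over its coding genes lay at 0.321 to 0.354 in the 3 KO libraries and between -0.008 and 0.008 in the controls. Chromosome 12 was the reverse, with 236 of 489 lower (48.3%), 70 higher and a median of -0.21, and chromosome 1 had 348 lower and 135 higher of 780. Windows of 30 coding genes in gene order were above 0 in 10 of 10 cases on the X chromosome and below 0 in 13 of 13 on chromosome 12 and 13 of 13 on chromosome 14. Some chromosomes changed level along their length, at borders chosen after values were seen: on chromosome 15 the median was -0.11 over 150 genes from Ghr to Ly6e and 0.17 over 317 from Zfp41 to Pde1b, on chromosome 5 it was 0.06 over 210 genes and -0.20 over 519, and on chromosome 8 it was -0.06 over 300 and 0.16 over 332. Centring each chromosome on its median, an alternative chosen after seeing the data, left 7289 genes called and 986 by at least 2-fold.

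**Figure D5:**
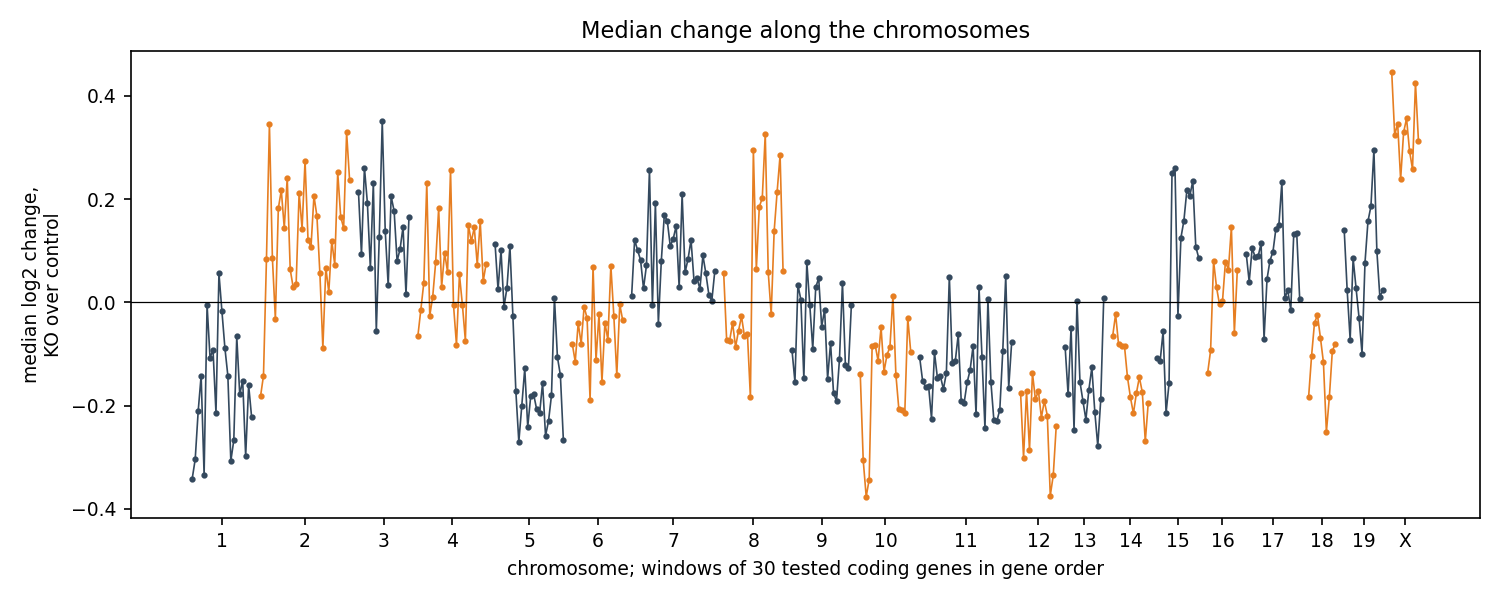
Median log2 change in KO over control in successive windows of 30 tested coding genes, ordered along each chromosome, with alternating colours for neighbouring chromosomes. All 10 windows of the X chromosome lie above 0, at 0.238 to 0.446, all 13 of chromosome 12 below 0, and chromosomes 5, 8 and 15 step from one side towards the other.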

How the data were processed

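Messenger RNA of 3 control and 3 KO libraries of 4T1 cells was sequenced. The deposited table gives counts per gene and FPKM made by the authors from those counts; per the submitters' processing notes the tools include cutadapt 1.9.1, HISAT2 2.2.1, HTSeq 0.6.1 and DESeq2, with the build GRCm38. The table's own gene coordinates are not those of GRCm38: of 52073 genes found in GENCODE M21, which uses that build, 1472 had the same start and end, although 50383 had the same span. They served here only for gene order and overlaps, and none is printed. By these coordinates 83 of 357 tested genes named in the text overlap another tested gene, so that counting could have shared their reads. The strand setting of the counting is not stated there. FPKM recomputed from the deposited counts differed by at most 0.005. The counts were tested with edgeR 4.0.16 (R 4.3.3): filterByExpr, TMM scaling, a robust quasi-likelihood fit of KO against control, and Benjamini-Hochberg adjustment over 13313 genes. DESeq2 1.42.0 and limma 3.58.1 served as alternatives, beside other scalings, other filters, a replicate block and leaving out each library. Libraries of one group differed beyond sampling noise. Same-numbered control and KO libraries did not deviate together (correlations -0.0233, -0.0102 and 0.00915), so numbers were not taken as pairs.

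Classes come from GENCODE M21, and annotations to cell compartments from the deposited table. The members and the 57 gene lists were chosen with earlier results of these data known. Genes were named as the 15 largest changes in each direction at a minimum of 1 FPKM, up to 4 per list and direction, the hub genes of each list, 6 lncRNAs per direction and markers of other cell types; others are marked as chosen after their values were seen. An exact permutation test of 3 against 3 cannot go below p = 0.1 and was not used. On simulated data for this comparison (13134 genes fitted), 44 of 49 genes lowered by a log2 of 1, 42 of 50 raised by 1, 36 of 49 lowered by 0.5, 32 of 50 raised by 0.5 and 17 of 12936 unchanged genes were called. The simulation changed 200 of 13313 genes, as many up as down, whereas 57% of tested genes were called in the data. These rates therefore do not give the error of the comparison itself. Some items are not reported here.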

Additional observations from a re-analysis of the deposited data

How the results depend on the processing

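All counts of called genes stayed within 1.5 times of the 7589 reported: 6829 with DESeq2, 7552 with limma-voom, 7603 with scaling to total counts, 6632 where a mean of at least 1 FPKM was required, 7832 with no low-count filter and 6853 to 7293 when 1 library was left out. The 1018 genes changed at least 2-fold became 384 where a mean of at least 1 FPKM was required, a setting that tests fewer low genes, and numbered 940 to 1488 otherwise. Their share that was higher, 74.3%, became 63.5% there. The share of all called genes that was higher, 49.1%, became 61.1% with scaling to total counts. The log2 change of Nedd4 lay between -2.04 and -1.93 over all settings.

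With the replicate number as a replicate block 7676 genes were called, 1005 of them by at least 2-fold, 48.8% of the called genes were higher, and Nedd4 stood at -2.01. Same-numbered libraries did not deviate together, and of the genes named here the block changed the call of Irf1 (0.17), higher with it. Chromosome centring was chosen after seeing the data.

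Genes near 0 that were not called changed sign in some settings. Scaling to total counts raises all changes by nearly the same amount (0.079 at the median), which by itself puts values just below 0 above it: C1galt1 (0.020), Foxo3 (0.056), Igf1r (0.054), Inhba (0.069), Met (0.035), Notch1 (0.065), Rab11a (0.029), Rab7 (0.032), St6gal1 (0.067) and Uhrf1 (0.068). The cause was not tested for the others. Where a mean of at least 1 FPKM was required they were Foxo3 (0.0061), Igf1r (0.0032), Inhba (0.018), Notch1 (0.014), St6gal1 (0.017) and Uhrf1 (0.019). With chromosome centring they were Elf3 (0.055), Eng (-0.049), F3 (-0.10), Foxo3 (0.11) and Inhba (0.13). When 1 library was left out, log2 changes ran from -0.037 to 0.13 for F3, from -0.086 to 0.0044 for Foxo3, from -0.11 to 0.040 for Igf1r, from -0.10 to 0.089 for Inhba, from -0.066 to 0.064 for Notch1, from -0.051 to 0.013 for St6gal1 and from -0.033 to 0.014 for Uhrf1. Depth limits genes at a few counts per library, where 1 library can set the size of a change.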
